A study of Mus musculus with 8 samples.

Results

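The Jun, Fos, Batf and Nr4a genes encode transcription factors of the early response to T cell receptor signals. The 10 genes Jun, Junb, Jund, Fos, Fosb, Fosl2, Batf, Nr4a1, Nr4a2 and Nr4a3 were taken by symbol out of 12413 genes with a listed m6A peak. They held 53 of the 52954 peaks of the deposited lists. The peaks come from mouse primary T cells of no stated strain, age or activation state, treated for 24 h with PTC, an agent the labels do not describe, or kept as control cells for the same time. Both conditions had 2 samples immunoprecipitated for m6A and 2 input samples, and both were deposited as 1 peak list, so no value below has a spread between samples and no test between conditions was possible. Whether the 2 samples of a group were separate animals or cultures is not in the labels. All positions are on mouse build GRCm38. Each listed peak has a fold enrichment and a false discovery rate (FDR), both the authors' own, which describe a peak within its list and are set side by side without reading a change from them. A pair of values in brackets after a peak gives its fold enrichment and then its −log10 FDR, which is higher for a smaller FDR.

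AP-1 is a dimer of basic leucine zipper proteins, in which a Jun protein pairs with another Jun, a Fos or a Batf protein and binds DNA. In T cells AP-1 joins NFAT at cytokine genes after stimulation, and Batf binds together with Irf4. The Nr4a genes encode orphan nuclear receptors that are induced by the T cell receptor and are known for roles in tolerance and exhaustion. m6A, a methylated adenosine set by the Mettl3 and Mettl14 enzymes, lies mainly near stop codons and is known to mark messengers for decay by Ythdf proteins. Messengers of early response genes are short lived, and many also carry AU-rich elements in the 3' UTR.

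The core consensus of m6A, GGACT in DNA letters, occurred 42 times in the 10 member transcripts, read on the transcript strand. Of these sites 21 lay inside peaks of both lists, 2 inside PTC peaks only, 3 inside control peaks only and 16 in no listed peak. The sites below are shown because they lie inside the peaks around the stop codon in both lists. Capitals mark the consensus, the other letters are the 10 bases on either side, and the last number is the distance of the central A from the first base of the stop codon. The sequences are GENCODE M21 transcript sequences.
Jun, chr4:95050127-95050151, minus strand, 130 nt: tacacaagatGGACTgggttgcgac
Jun, chr4:95049981-95050005, minus strand, 276 nt: ccagaacgatGGACTtttcgttaac
Junb, chr8:84977259-84977283, minus strand, 126 nt: ctcacacactGGACTccggcccgcc
Jund, chr8:70700097-70700121, plus strand, 28 nt: gcgcatgcgcGGACTagctgcggtg
Jund, chr8:70700124-70700148, plus strand, 55 nt: ggggcgccccGGACTctttcgagac
Jund, chr8:70700150-70700174, plus strand, 81 nt: cggtgcccccGGACTcgacaagccg
Fosl2, chr5:32153314-32153338, plus strand, 139 nt: ccacccggtgGGACTtagtggtgag
Batf, chr12:85708889-85708913, plus strand, 151 nt: gtggtcagagGGACTtaaggcctcc
Batf, chr12:85708927-85708951, plus strand, 189 nt: tcaatgtactGGACTctcccaggga
Batf, chr12:85708986-85709010, plus strand, 248 nt: agtcaaccctGGACTgtcatgaatg
Nr4a1, chr15:101274182-101274206, plus strand, -56 nt: tcaagttggaGGACTtggtaccccc
Nr4a3, chr4:48071017-48071041, plus strand, -385 nt: gttctgcaatGGACTtgtcctgcat
Nr4a3, chr4:48083282-48083306, plus strand, -56 nt: tgaagctagaGGACTtggtacctcc

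The Jun, Fosl2 and Batf sites are in the 3' UTR, and so are those of Junb and Jund. The Nr4a1 and Nr4a3 sites are in coding sequence. Those at -56 lie at the same distance from the stop codon in both genes, and 21 of their 25 printed bases are identical. The sites that only one list holds under a peak are shown next, with the list named.
Fosb, PTC peak, chr7:19309645-19309669, minus strand, -1240 nt: gacagagcctGGACTttcaggaggt
Nr4a1, PTC peak, chr15:101270392-101270416, plus strand, -1484 nt: tcaagtttgaGGACTtccaggtgta
Fosl2, control peak, chr5:32155060-32155084, plus strand, 1885 nt: agcggagccgGGACTagaggagttg
Fosl2, control peak, chr5:32155231-32155255, plus strand, 2056 nt: cacaggcctgGGACTtggtaccctg
Batf, control peak, chr12:85686963-85689281 across an exon junction, plus strand, -311 nt: ctggcaaacaGGACTcatctgatga

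All 10 genes had peaks in both lists, where 79.2% of genes with a peak in either list did. The PTC list held 24 member peaks and the control list 29. With only peaks of −log10 FDR 5 or more kept, 8 of the 10 genes were in both, and Fosb and Nr4a2 were in the PTC list only. With only peaks of 4-fold enrichment or more kept, 5 genes were in both lists. Of the rest, Batf was in the PTC list only, Fos and Nr4a1 in the control list only, and Junb and Jund in neither. The Nr4a1 peak left was weak (4.30, 2.06) and outside the transcript used, and its overlapping pairs were all under 4-fold. The FDR filter kept 59.8% of all PTC and 53.4% of all control peaks, and the fold filter 45.2% and 45.0%. The share of all genes in both lists at these filters is not given here. Fewer PTC than control peaks were listed for 4 members (Junb, Fosb, Fosl2 and Nr4a1), against 41.6% of genes in both lists. Equal numbers were listed for 5 members (42.4% of genes), and Jun had more PTC peaks (16.0% of genes). The PTC list is the shorter one, with 23368 peaks against 29586 in the control list, and the tally turned with list length. With the control list shortened to its 23368 strongest peaks, 2 members had fewer PTC peaks (Junb and Fosl2), 5 had equal numbers and 3 had more (Jun, Fos and Fosb). Over the same 9836 genes the shares were then 26.5% fewer, 44.3% equal and 29.2% more. Fosb changed direction, with 1 PTC peak and no control peak left, against 1 PTC and 2 control peaks in the full lists. A listed peak needs enough RNA as well as methylation, and in bulk samples fewer cells of a type and less RNA per cell cannot be told apart.

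Most member peaks recurred between the lists. At least 1 exonic base was shared with a control peak by 22 of 24 PTC peaks (91.7%, exact 95% interval 73.0 to 99.0%, counting error only), against 78.8% of all PTC peaks. This interval and the next treat peaks as separate draws and may be too narrow. The peaks lie in 10 genes, and 1 Jun control peak overlapped 3 PTC peaks. A PTC peak overlapped 22 of 29 control peaks (75.9%, 56.5 to 89.7%), against 60.2% of all control peaks. Member peaks were also wider than usual, with a median of 448 and 361 nt against 270 and 268 nt. The part of width in the overlap was not tested. Strength went with this overlap. All 19 PTC peaks with −log10 FDR 5 or more were overlapped, against 93.7% of such peaks in the whole list, and 18 of 20 such control peaks, against 82.7%. Of the weaker member peaks 3 of 5 were overlapped in the PTC list (56.6% in all) and 4 of 9 in the control list (34.4%). Within 200 nt of the stop codon, 7 of 7 PTC member peaks were overlapped (83.6% in all) and 6 of 7 control ones (82.0%). Beyond 1000 nt past it, 2 of 3 PTC member peaks were (71.3%) and 2 of 5 control ones (45.9%). In 9 of 24 overlapping pairs one edge fell on the same base in both lists, and 32.1% of all pairs did so.

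**Figure D1:**
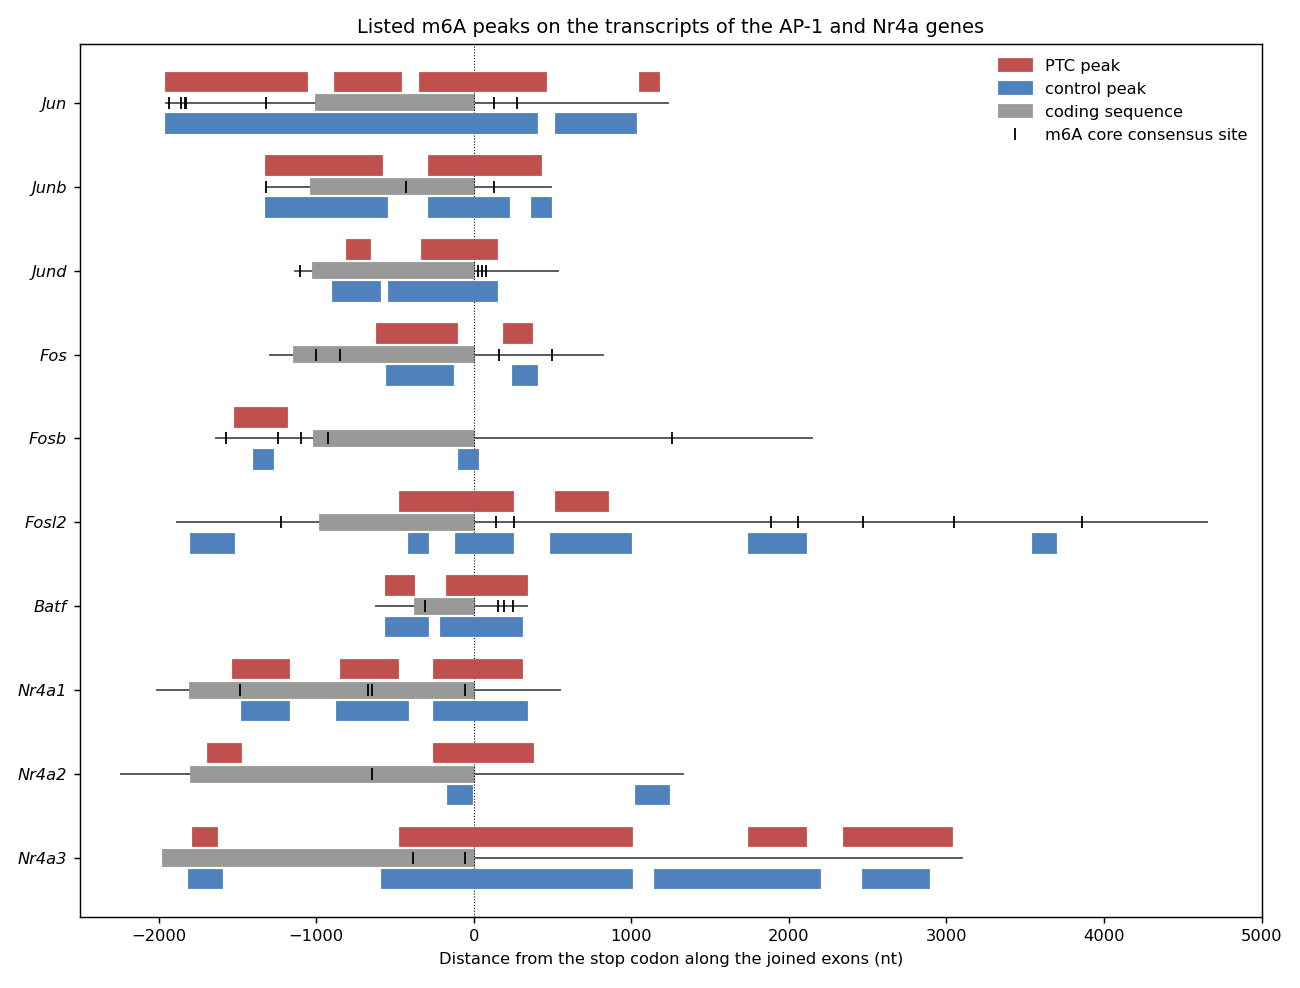
Listed m6A peaks on the transcripts of the 10 genes, PTC peaks above and control peaks below each transcript line. The horizontal axis is the distance from the first base of the stop codon in nt along the joined exons, grey bars are coding sequence and ticks are the 42 core consensus sites. Peaks span the stop codon in 8 genes in the PTC list and 8 in the control list. The Nr4a1 control peak outside the transcript used is not drawn.

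Jun, the founding AP-1 subunit, is an intronless gene on chromosome 4 (95049034 to 95052222, minus strand). Its PTC list entry was 4 separate peaks and its control entry 2. The first PTC peak lay wholly in the 5' UTR (895 nt, fold 5.96, −log10 FDR 89.7), the second in coding sequence (418 nt, 1.5, 6.97), and the third covered the stop codon from -344 to 460 (805 nt, fold 7.90, with an FDR too small for the file to hold). Along this stretch the control list had 1 peak of 2355 nt, unbroken from the first base of the transcript to 401 nt past the start of the stop codon, with a fold enrichment of 6.84 and an FDR again too small. Among all peaks, 8.33% of PTC peaks met 2 or more control peaks, as did the stop codon peaks of Junb and Fosl2, and 8.07% of control peaks met 2 or more PTC peaks, as here. In bases, PTC peaks covered 70.2% of the Jun transcript and control peaks 89.7%. Downstream in the 3' UTR, the PTC peak at 1056 to 1175 (3.23, 2.03) and the control peak at 520 to 1026 (3.09, 12.5) did not touch. By its strongest peak Jun ranked 57 of 10859 genes in the PTC list and 21 of 11390 in the control list. The antisense gene Junos shares 689 positions with the Jun locus on the other strand. It held 1 peak in each list, with 232 nt inside the peaks of Jun in either list.

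Junb, a Jun protein that often acts as a weaker activator than Jun, lies on chromosome 8 (84974484 to 84978718, minus strand). It had a peak over the 5' UTR and the start codon and another over the stop codon in both lists. The first began at the transcript start in both and ended at -580 in the PTC list (fold 3.31, −log10 FDR 68.1) and at -550 in the control list (2.77, 48.7). The stop codon peak began at -284 in both lists. It reached 428 in the PTC list (713 nt, 3.83, 103) and 220 in the control list (505 nt, 3.03, 69.1), where a further small peak followed at 368 to 487 (2.83, 5.87). The PTC stop codon peak overlapped both of these control peaks. Of the bases under a Junb peak in either list, 84.7% were under a peak in both, the highest share among the members.

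Jund, the Jun family member known for steady expression in resting cells, also lies on chromosome 8 (70698949 to 70700616, plus strand). Its stop codon peak ended at 148 in both lists. It began at -328 in the PTC list (fold 3.90, −log10 FDR 182) and at -537 in the control list (3.13, 143). The coding sequence held a second peak of 150 nt in the PTC list (1.28, 10.1) and of 299 nt in the control list (1.64, 45.7), which contained the PTC one. PTC peaks covered 37.6% of the transcript and control peaks 59.1%. An antisense gene model, Gm11175, lies within Jund on the opposite strand, and its 2 PTC and 2 control peaks fell almost wholly inside the Jund peaks. Of their bases, 147 of 147 and 315 of 315 nt lay inside Jund peaks in the PTC list, and 292 of 292 and 537 of 543 nt in the control list. Whether the counting used strand is not given in the sources used here, so signal of Jund and of its antisense model cannot be told apart. The same holds for Jun and Junos.

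Fos, the partner of Jun in the classical AP-1 dimer, had no peak over the stop codon in either list. Its 2 peaks on chromosome 12 lay on either side of it. The coding peak ran from -611 to -106 in the PTC list (506 nt, fold 3.85, −log10 FDR 10.8) and from -552 to -135 in the control list (418 nt, 6.41, 7.11), inside the PTC one. The 3' UTR peak was weak in both lists, at 192 to 371 in PTC cells (1.77, 2.36) and 252 to 400 in control cells (2.33, 2.66). None of the 4 core consensus sites of Fos lay inside a peak. Fos ranked 6053 of 10859 genes in the PTC list and 7161 of 11390 in the control list by its strongest peak.

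Fosb, a Fos protein that is also made as a shorter form without part of its activation domain, was the member with the least transcript under peaks. PTC peaks covered 8.73% of it and control peaks 6.37%. On chromosome 7 (19302696 to 19310051, minus strand) a 5' UTR peak of 330 nt in the PTC list had a fold enrichment of 25.6, higher than 99.3% of PTC peaks, with a −log10 FDR of only 6.98. Inside it lay a control peak of 120 nt with a fold of 12 and a −log10 FDR of 2.31. The control list alone had a peak over the stop codon (121 nt, 4.67, 2.38). Both control peaks were weaker than 90% of the control list, as 8.01% and 9.84% of control peaks had a lower −log10 FDR.

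Fosl2, also called Fra-2, has the longest 3' UTR of the set (4653 nt) and the largest difference in the number of peaks, 2 in the PTC list and 6 in the control list. Both lists had a stop codon peak that ended at 250. It began at -469 in the PTC list (720 nt, fold 6.94, −log10 FDR 54.5) and at -110 in the control list (361 nt, 6.03, 27.1), where a separate small peak at -409 to -289 (2.05, 2.53) lay under the same PTC peak. A second shared peak stood at 520 to 849 in the PTC list (3.21, 10.1) and 490 to 999 in the control list (5.87, 18.8). The other 3 control peaks had no PTC partner. They lay in the 5' UTR (2.74, 3.66) and far down the 3' UTR at 1748 to 2108 (3.95, 9.32) and 3546 to 3696 (2.76, 2.70). With −log10 FDR 5 or more the numbers were 2 in the PTC list and 3 in the control list. With both lists at equal length they were 2 and 4.

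Batf, which has a leucine zipper but no transactivation domain and pairs with Jun proteins, is encoded on chromosome 12 (85686669 to 85709087, plus strand). It had 2 peaks in each list. The peak over the stop codon ran from -171 to 337, the last base of the transcript, in the PTC list (509 nt, fold 4.95, −log10 FDR 38.8) and from -207 to 307 in the control list (539 nt, 2.64, 17.4), and 479 nt were common. The 5' peak covered 180 nt of the 5' UTR in the PTC list (5.08, 3.60). In the control list it reached over the start codon into the next exon (270 nt, 3.23, 8.19). PTC peaks covered 72.1% of this short transcript of 955 nt and control peaks 82.2%.

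Nr4a1, also called Nur77 and widely used as a reporter of T cell receptor signals, had 3 PTC and 4 control peaks on chromosome 15. In this gene 3 pairs overlapped. The stop codon peak began at -254 in both lists and reached 305 in the PTC list (fold 2.00, −log10 FDR 44.6) and 335 in the control list (2.32, 35.1). A peak near the start of the coding sequence ended at -1170 in both lists and was 360 nt long in the PTC list (1.76, 48.0) and 300 nt in the control list (1.28, 5.90). These folds were among the lowest of their lists, with 6.71% of PTC and 0.203% of control peaks lower. The third pair lay across exon junctions in mid coding sequence (361 nt, 1.94, 8.69 in the PTC list and 451 nt, 3.22, 15.1 in the control list). The fourth control peak was weak (4.30, 2.06) and lay outside the exons of the transcript used. Both lists held 80.4% of the bases under any Nr4a1 peak.

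Nr4a2, or Nurr1, best known from dopaminergic neurons, had the lowest share of common peak bases among the members. Of the bases under a peak in either list, 14.3% were under one in both, a lower share than in all but 7.72% of coding genes. The PTC list had a stop codon peak of 627 nt from -253 to 373 (fold 7.78, −log10 FDR 11.7). The control list had a peak of 150 nt inside it, from -164 to -15 (5.98, 3.59), which ended short of the stop codon. A PTC peak in early coding sequence (1.96, 4.71) and a control peak far down the 3' UTR at 1030 to 1238 (6.35, 4.36) had no partner. Both control peaks had a −log10 FDR under 5. The PTC stop codon peak held 26 sites of the wider DRACH consensus and no GGACT.

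Nr4a3, or Nor1, had 4 peaks in each list, and every one of them had a partner. The widest crossed exon junctions and ran past the stop codon, from -465 to 1002 in the PTC list (1468 nt, fold 6.25, −log10 FDR 50) and from -584 to 1002 in the control list (1587 nt, 5.68, 36.0). All 1468 nt of the PTC peak were inside the control peak. Further down the 3' UTR the PTC peak at 1750 to 2109 (1.57, 6.56) lay inside a control peak at 1152 to 2199 (2.20, 35.2), while the PTC peak at 2349 to 3037 (1.96, 18.8) contained the control peak at 2468 to 2887 (1.94, 14.6). A short peak in early coding sequence was listed at a low fold in both (1.23 and −log10 FDR 4.10 in PTC cells, 1.37 and 8.45 in control cells).

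A peak that held the whole stop codon was listed for 8 of 10 members in the PTC list and 8 of 10 in the control list, against 56.5% and 54.9% of listed genes with an annotated stop codon. The genes without one were Fos and Fosb in the PTC list and Fos and Nr4a2 in the control list, so 7 members had it in both (50.3% of genes in both lists). Among genes whose strongest peak reached a −log10 FDR of 5 the shares were 65.4% in the PTC list and 65.4% in the control list. All 10 members reached this value in the PTC list. In the control list Fosb (2.38) and Nr4a2 (4.36) did not, and Fosb is 1 of the 8 members counted there. The strongest peak of the gene was the one over the stop codon for 7 members in the PTC list and 8 in the control list, against 44.7% and 41.3% of all genes. Of the midpoints, 7 of 24 in the PTC list and 7 of 28 in the control list lay within 200 nt of the stop codon, against 22.8% and 17.3% of all peaks. The Nr4a1 control peak outside the transcript has no such position.

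**Figure D2:**
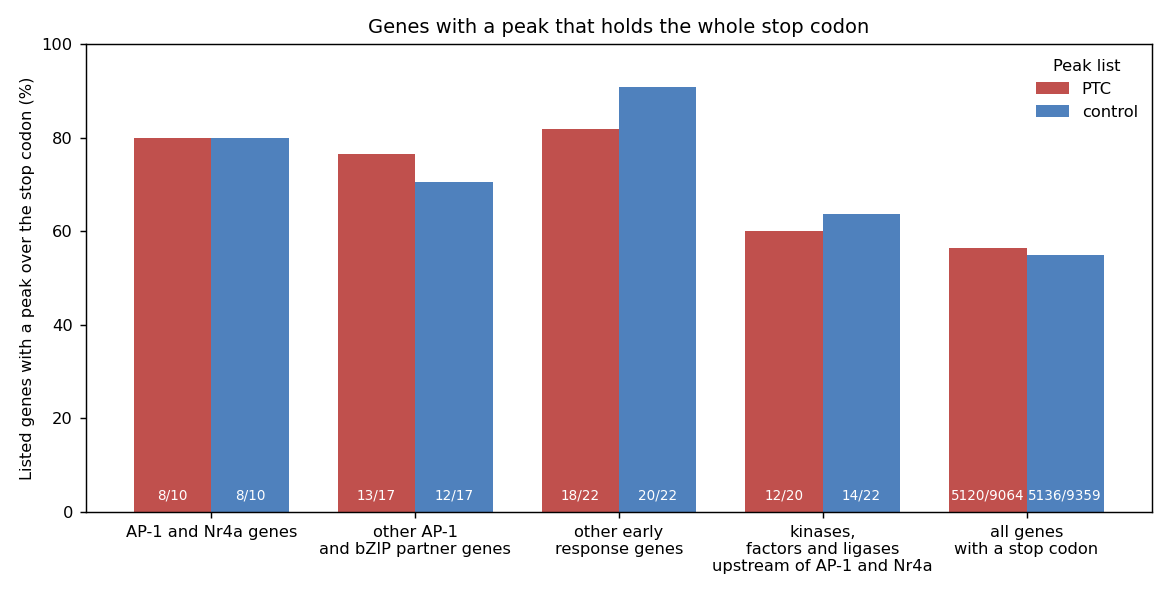
Share of listed genes with a peak over the whole stop codon, as a percentage, for the AP-1 and Nr4a genes, 3 related gene lists and all genes, PTC list in red and control list in blue. Numbers in the bars are genes with such a peak over genes listed. The members stand at 8/10 in both lists, and all genes at 5120/9064 in the PTC list and 5136/9359 in the control list.

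By bases, 14.3% of the member peak length lay in 5' UTRs, 43.8% in coding sequence and 41.9% in 3' UTRs in the PTC list, and 13.4%, 41.4% and 45.3% in the control list. For all coding genes the 5' UTR held 3.62% of peak bases in the PTC list and 3.92% in the control list. Without Jun the 5' UTR shares of the other members were 8.30% in the PTC list and 8.04% in the control list. None of these shares was set against the length of the regions, so they do not measure enrichment in the 5' UTR. The 5' UTRs of the members ranged from 0 nt in the Nr4a3 transcript used to 951 of 3189 nt in Jun. The 3 Jun genes have 1 exon, as 2.78% of coding genes in both lists do. Start codons were held by a peak in Junb in the PTC list and in Jun, Junb and Batf in the control list, against 18.7% and 23.1% of listed genes.

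**Figure D3:**
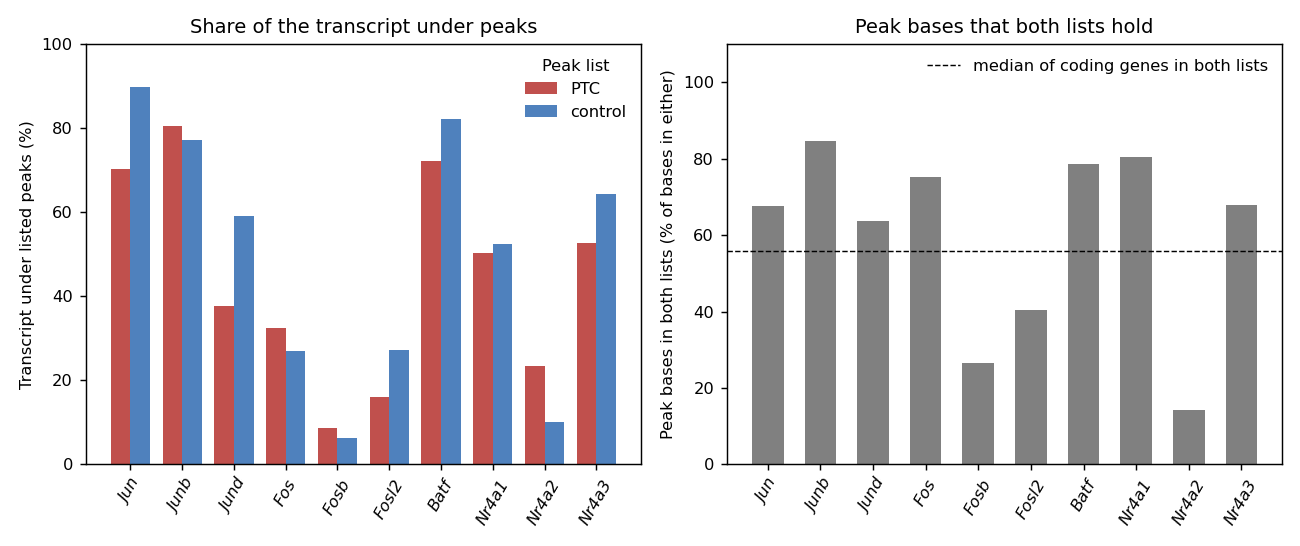
Left, percentage of each transcript under PTC (red) and control (blue) peaks. Right, bases under a peak in both lists as a percentage of bases under a peak in either, with the median of 8554 coding genes (55.9%) as a dashed line. Jun, Junb and Batf have over 70% of the transcript under peaks in both lists, and Fosb, Fosl2 and Nr4a2 lie below the dashed line.

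The members differed widely in coverage. Peaks covered 8.73% (Fosb) to 80.4% (Junb) of a transcript in the PTC list, with a median of 43.9%, and 6.37% (Fosb) to 89.7% (Jun) in the control list, with a median of 55.8%. The medians over coding genes in both lists were 25.7% and 31.6%. PTC coverage was the larger in Junb, Fos, Fosb and Nr4a2, and control coverage in the other 6. The share of peak bases held by both lists had a median of 67.8% over the members, against 55.9% over coding genes with a middle range of 37.4 to 72.1%.

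**Figure D4:**
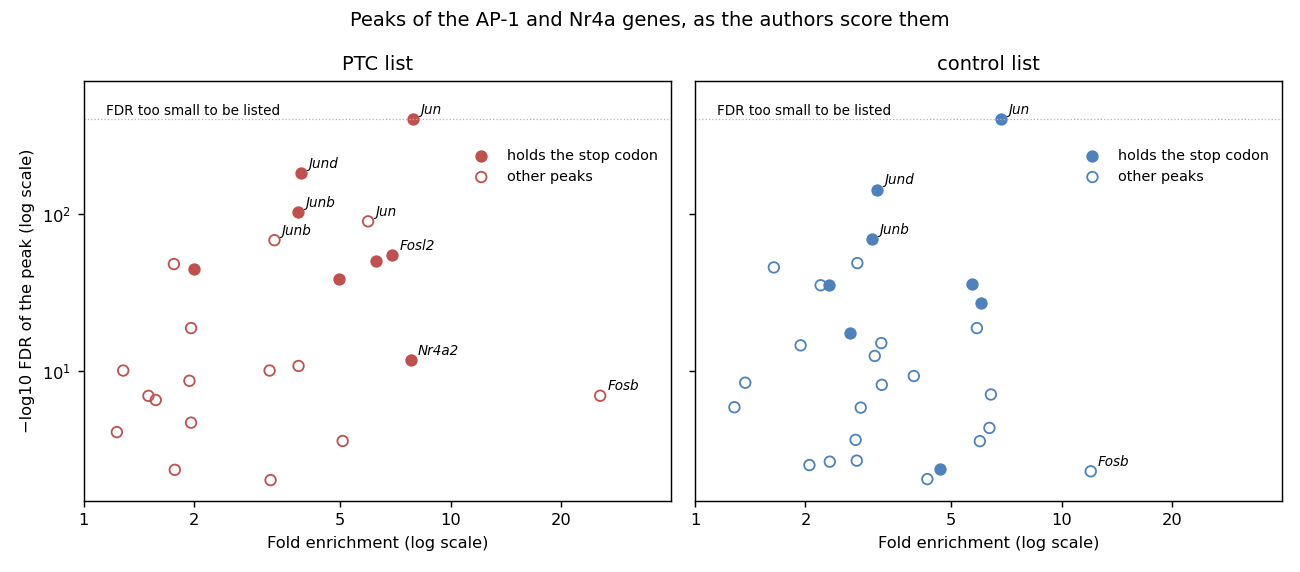
Fold enrichment (horizontal, log scale) and −log10 FDR (vertical, log scale) of the member peaks in the PTC list (left) and control list (right), as the authors give them. Filled points hold the stop codon. Jun peaks whose FDR is below what the file can hold are set on the dotted line, whose height has no value. Jund and Junb have strong peaks at folds from 3.03 to 3.90, and Fosb a high fold at a low −log10 FDR.

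Peak scores also differed among the members. The median fold enrichment of member peaks was 3.27 in the PTC list and 3.09 in the control list, against 3.66 and 3.65 over all peaks. A fold of at least 4 was reached by 8 of 24 PTC peaks and 10 of 29 control peaks, against 45.2% and 45.0% of all. The −log10 FDR was 5 or more in 19 of 24 PTC and 20 of 29 control peaks, against 59.8% and 53.4%. The Jun genes stood highest, with Jund at rank 245 and Junb at rank 734 of 10859 genes in the PTC list and at ranks 200 and 961 of 11390 in the control list. Fosb (rank 7239 in the PTC list and 10778 in the control list), Nr4a2 (5837 and 8785) and Fos had the lowest ranks among the members. Only Fosb in the control list was near the end of a list. Member peaks were wider than usual, with a median of 448 nt in the PTC list and 361 nt in the control list, against 270 and 268 nt over all peaks.

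GGACT was found on the transcript strand in 12 of 24 PTC peaks and 11 of 28 control peaks, against 37.5% and 34.8% of all peaks. Per length, as the member peaks are wider, there were 1.94 sites per 1000 nt in PTC member peaks and 1.77 in control member peaks, against 1.34 and 1.25 in all peaks and 1.34 over the whole member transcripts. Within 50 nt on either side of the midpoint, 1 PTC and 2 control member peaks held the motif, against 13.1% and 11.8% of all peaks. DRACH (D any base but C, R a purine, H any base but G), which includes GGACT, occurred 22.7 times per 1000 nt in PTC member peaks and 19.6 times in control ones, against 22.0 and 21.3 in all peaks. Nr4a1 and Nr4a2 share a GGACT at -647 in coding sequence, with 18 of 25 surrounding bases identical, both across an exon junction. That of Nr4a1 lay under peaks in both lists and that of Nr4a2 under none.
Nr4a1, in peaks of both lists, chr15:101272282-101272719, plus strand, -647 nt: ctgccaaattGGACTattccaagtt
Nr4a2, in no peak, chr2:57109264-57110136, minus strand, -647 nt: tgaccagcctGGACTattccaggtt

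ATTTA, the core of the AU-rich elements bound by Zfp36 proteins, was present in the 3' UTR of 9 of 10 members, all but Batf, and in 68.7% of coding genes in both lists. The member transcripts held 33 such sites. Few were under peaks, namely 5 in the PTC list and 7 in the control list, or 0.422 and 0.516 per 1000 nt of member peak against 1.06 per 1000 nt over the whole member transcripts. In every member with such sites except Fosb, all of them lay in the 3' UTR. Only 41.9% of PTC and 45.3% of control member peak bases were in 3' UTRs, and the densities were not corrected for region. All peaks together held 1.03 per 1000 nt in either list.

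Of 18 other AP-1 and basic leucine zipper partner genes 16 were in both lists, against 79.2% of all genes with a peak. Batf2 was in the control list only (−log10 FDR 4.35). The strongest in the PTC list were Irf4, the partner of Batf, with an FDR too small to hold in both lists, the oxidative stress factor gene Nfe2l2 (213, and 111 in the control list) and Irf8 (147 and 231). All 22 other early response genes were in both lists (79.2% of all genes with a peak). They were led by Myc and the activation marker Cd69, with an FDR too small to hold in the PTC list, and by the ERK phosphatase gene Dusp5 (259, and 217 in the control list). Of these 22 genes 18 had a stop codon peak in the PTC list and 20 in the control list. The shares were 56.5% and 54.9% over all listed genes with an annotated stop codon. Among genes whose strongest peak reached a −log10 FDR of 5 they were 65.4% in either list. Fewer PTC than control peaks were listed for 8 of the 22 (41.6% of all genes in both lists), equal numbers for 7 (42.4%) and more for 7 (16.0%).

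Of 23 genes upstream of AP-1 and Nr4a, which encode MAP kinases, ternary complex, Creb, Mef2 and NFAT factors and ligases for Jun, 20 were in both lists. The ternary complex factor gene Elk1 (−log10 FDR 4.80) and Mef2d (5.80), a known activator of Nr4a1, were in the control list only, and the ERK1 gene Mapk3 was in neither. The strongest in the PTC list were Elk4 (239, and 194 in the control list), the JNK kinase gene Map2k4 (165 and 127) and Crem (111 and 69.9). Fewer PTC than control peaks were listed for 12 of the 20 (41.6% of all genes in both lists), equal numbers for 6 (42.4%) and more for 2 (16.0%). For the 16 partner genes in both lists the numbers were 5 fewer, 8 equal and 3 more. Of all genes with a peak, 79.2% were in both lists, 8.24% in the PTC list only and 12.5% in the control list only.

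Marker genes of T cells, B cells and myeloid cells were read in both lists. Peaks do not measure the share of a cell type, so the purity of the samples was not tested. All 12 T cell markers had a PTC peak and 11 had a control peak, with Trbc2 in the PTC list only (−log10 FDR 5.36). They were led by Cd8b1 (FDR too small to hold, and 271 in the control list), Cd28 (231 and 140) and Cd5 (111 and 63.3). The other T cell markers scored lower in the PTC list. Of 8 B cell markers 7 were in both lists, against 79.2% of all genes with a peak, and Cd79a was in neither. They were led by Igkc (FDR too small to hold in both lists), Cd79b (272, and too small to hold in the control list) and Ms4a1 (134 and 217). Of 9 myeloid markers 7 were in both, against the same 79.2%, Tyrobp was in the PTC list only (11.4) and Itgam in neither. They were led by Mpeg1 (151 and 174), S100a8 (112 and 31.1) and Cd14 (91.4 and 15.3). Jun, Fos and Nr4a genes are known to be expressed in B and myeloid cells too, and the part of other cells in the member peaks was not tested. The authors' deposited table gives a fragment length of 211 nt for PTC and 213 nt for control, 15855 PTC and 19420 control peaks and 33.03% and 36.07% of reads in peaks. These peak counts are lower than the 23368 and 29586 peaks of the lists used here. Why they differ is not given in the sources used here.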

How the data were processed

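m6A immunoprecipitate and input RNA of PTC-treated and control mouse primary T cells (4 groups of 2 samples, grouped by title) were deposited as 1 peak list per condition. The submitters' processing notes name BWA 0.7.12, MACS2 2.1.0 and GRCm39, without their roles. The caller of the lists, its threshold and any pooling of samples were not given in the sources used here. Of the junctions between exon blocks, 99.8% in the PTC list and 99.9% in the control list fell on exon ends of GENCODE M21, which is on GRCm38, so coordinates were read as GRCm38 and none was converted.

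Per the file headers, each peak has a p-value, a log p and log FDR (a score on a log10 scale, down to values too small to hold) and a fold enrichment, a linear ratio taken as immunoprecipitate over input. The authors' deposited summary gives the peak count and the percent of reads in peaks per condition. Read depth per sample is unknown. Fold and FDR served only to describe and rank the peaks of one list.

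Peaks were compared by the bases of their exon blocks, strand by strand (bedtools 2.31.1, python 3.11.15, pandas 2.3.3 and scipy 1.17.1), with at least 1 bp shared. The transcript with the longest coding sequence stood for a gene. For Nr4a3 that model lacks a 5' UTR, and distances from the stop codon are not affected. Shares carry exact Clopper-Pearson 95% intervals where printed. On 400 simulated peaks, some without overlap, the functions gave the right number of shared bases, region bases and motifs in all 400. The members and lists were chosen with earlier results of these data known. Named genes are the 10 members, each list gene in 1 condition only or in neither, and the 3 of each list strongest in the PTC list. One gene under this rule is not reported here. Distances over 1000 nt, edges and the count without Jun were added after values were seen. The fitted count tests planned for values per sample were not run.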

Additional observations from a re-analysis of the deposited data

How the results depend on the processing

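With all listed peaks all 10 genes were in both lists. Keeping only peaks of 4-fold enrichment or more left 5 genes in both lists, 8 PTC and 10 control member peaks, and 50% of those control peaks overlapped. This filter removes strong peaks of modest fold, as in Junb and Jund. It kept 45.2% of all PTC peaks and 45.0% of all control peaks, and the share of all genes then in both lists is not given here. Requiring 50% of each peak to be shared lowered the overlapped share to 66.7% of PTC and 55.2% of control peaks, while 50% of the shorter peak left it at 91.7% and 75.9%. Within 400 nt of the stop codon lay 10 PTC and 11 control midpoints. For all peaks, the overlapped shares at the fold filter and the 50% rules are not given here. Nor is the share of midpoints within 400 nt. Whether the members stand above all peaks at these settings was not tested. Within 50 nt on either side of the midpoint 1 PTC and 2 control peaks held GGACT; the narrower window is by construction the stricter one. With −log10 FDR 5 or more and at equal list length, where Fosb had no control peak left, the counts and overlapped shares of the member set stayed within 1.5 times or within their intervals, and so did the region shares with the longest transcript or by midpoint. Of 120 values for single genes (peak numbers and covered shares) 81 stayed within 1.5 times and 39 did not, 27 of the 39 at the fold filter. The order of PTC and control peak numbers held at all 3 filters in Jun and Fosl2. In Jun 1 wide control peak overlapped 3 PTC peaks, so the larger PTC number is not more transcript under peaks. With all peaks, control peaks covered 89.7% of the Jun transcript and PTC peaks 70.2%. With all peaks 4 members had fewer PTC peaks and 1 had more, against 4 and 3 with −log10 FDR 5 or more, 5 and 2 at the fold filter and 2 and 3 at equal length. For all genes these tallies were read only in the full lists and at equal length. Fosb turned to 1 PTC and 0 control peaks at the FDR filter and at equal length. Of the members with equal numbers in the full lists, Fos, Batf and Nr4a2 went either way. Fos had 2 PTC and 1 control peaks at equal length but 0 and 1 at the fold filter. Batf had 1 and 2 at the FDR filter but 2 and 0 at the fold filter. Nr4a2 had 1 and 0 at the FDR filter but 1 and 2 at the fold filter. Jund kept equal numbers at every filter, and Nr4a3 at all but the FDR filter, where it had 3 and 4. No paired analysis was possible because the lists hold no values per sample, and leaving out single samples was not run for the same reason.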
